A study of Arabidopsis thaliana with 12 samples.

Results

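NdhS, AT1G76450 and AT1G15140 are 3 nuclear genes for chloroplast proteins of photosynthetic electron transport and related redox chemistry, and their transcripts were measured in Arabidopsis thaliana by array. They are 3 of the 692 array probes that carried the name of a single gene, among 3439 probes in all, and each of the 3 genes had 1 probe. They were chosen by their normalised intensities in pam48 and wild-type samples, which had been seen to differ in opposite directions, so every genotype difference of these 3 genes below is a description with no test. The samples were 6 of the wild type (WT) and 6 of the pam48 mutant, numbered 1 to 6 in each genotype, all total RNA of ecotype Columbia 0. The labels call pam48 a mutant of photosynthesis whose defective protein was not known, and they give neither the mutated gene nor the tissue, age, growth conditions or number of plants. Whether the numbered samples of a genotype came from separate plants is not stated, so the spread between them may be technical. No single-gene probe named any of the 15 marker genes of seed, root, senescence or defence that were looked for, so the tissue could not be checked. In RNA from whole samples, fewer cells with a transcript and less of that transcript per cell cannot be told apart.

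NdhS (AT4G23890), also called CHLORORESPIRATORY REDUCTION 31 or CRR31, is a subunit of the chloroplast NADH dehydrogenase-like (NDH) complex. The NDH complex sits in the thylakoid membrane, takes electrons from reduced ferredoxin and passes them to plastoquinone, and so feeds cyclic electron flow around photosystem I. NdhS lies on the stromal side of the complex and forms the place where ferredoxin docks. AT1G76450 encodes a protein with a PsbP domain in the thylakoid lumen. The name giver of that family, PsbP, is an extrinsic protein of the oxygen-evolving part of photosystem II, and its relatives have taken up other tasks in the lumen. AT1G15140 encodes an oxidoreductase with binding folds for FAD and NAD(P), of the kind also found in ferredoxin-NADP reductase, the enzyme that makes NADPH at the end of linear electron transport.

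Intensities were deposited on a linear scale on which the brightest spots of each sample stood at 100. Sample medians on that scale were between 0.0913 and 0.192 for WT and between 0.233 and 0.305 for pam48, so the samples were not at a common level. They were therefore quantile normalised, which gives all samples the same distribution of values, and log2 was taken. None of the 3 genes was at the maximum of the scale, and all were above the floor, a lower limit set on each sample's values, in 12 of 12 samples. All 12 columns were closest to the column with the consecutive number of the same genotype (1 with 2, 3 with 4, 5 with 6). These are called couples here, and each difference is also given within them.

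NdhS was higher in 4 of the 6 pam48 samples and level with WT in the other two. Its deposited intensity in WT samples 1 to 6 was 3.58, 3.84, 4.13, 4.12, 3.92 and 3.86. In pam48 samples 1 to 6 it was 7.96, 8.86, 10.2, 9.91, 3.50 and 3.62. The WT samples lay close together, pam48 samples 1 to 4 lay above all of them, pam48 5 lay just under the lowest WT sample, and pam48 6 lay between the lowest WT sample and the next.

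After quantile normalisation NdhS stood at 1.99 ± 0.084 (log2, SD, n = 6) in WT and at 2.84 ± 0.607 (SD, n = 6) in pam48. The difference was 0.86 ± 0.25 (log2, pam48 minus WT, SE, 6 samples per genotype), or 1.81-fold. On this scale 5 of the 6 pam48 samples lay above the highest WT sample, WT 2 at 2.07, and pam48 5 equalled it at 2.07. Of all probes, 10.1% had a larger rise than NdhS.

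AT1G76450 was lower in every pam48 sample after normalisation. Its deposited intensity in WT samples 1 to 6 was 0.165, 0.178, 0.137, 0.193, 0.293 and 0.332, and in pam48 samples 1 to 6 it was 0.142, 0.138, 0.0803, 0.0997, 0.202 and 0.167. As deposited the genotypes overlapped, with pam48 samples 3 and 4 below every WT sample and the other 4 within the WT range. Samples 5 and 6 were the highest of their genotype in both WT and pam48.

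On the normalised scale AT1G76450 stood in WT at -1.76, -1.69, -1.97, -1.60, -1.74 and -1.55 (log2, samples 1 to 6). In pam48 it stood at -3.14, -3.13, -4.74, -4.25, -2.66 and -2.97. The genotypes did not overlap, and pam48 samples 3 and 4 were the lowest. Every pam48 sample lay below every WT sample for 4.07% of all probes, a share from which nothing is read here since the choice of the gene used this difference. The means were -1.72 ± 0.147 (SD, n = 6) in WT and -3.48 ± 0.817 (SD, n = 6) in pam48, a difference of -1.76 ± 0.34 (log2, SE), or 3.39-fold lower in pam48. Of all probes, 0.814% had a deeper fall. The value of pam48 3 was above that sample's own floor but below the floors of WT samples 2, 3 and 4 (-4.61, -4.43 and -4.47, log2). With 1 common floor for all samples the difference was -1.71 (log2).

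AT1G15140 was lower in pam48 in each couple of samples. Its deposited intensity in WT samples 1 to 6 was 0.366, 0.420, 0.572, 0.615, 0.396 and 0.359, and in pam48 samples 1 to 6 it was 0.317, 0.297, 0.547, 0.507, 0.188 and 0.246. Both genotypes had their highest values in samples 3 and 4, and as deposited 4 of the 6 pam48 samples lay below the lowest WT sample.

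On the normalised scale AT1G15140 stood in WT at -0.81, -0.68, -0.48, -0.39, -1.25 and -1.43 (log2, samples 1 to 6), and in pam48 at -1.93, -2.03, -1.42, -1.58, -2.78 and -2.32. Only pam48 3 reached the WT range, just above WT 6. The means were -0.84 ± 0.419 (SD, n = 6) in WT and -2.01 ± 0.494 (SD, n = 6) in pam48, a difference of -1.17 ± 0.26 (log2, SE), or 2.25-fold lower. Of all probes, 5.26% had a deeper fall.

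**Figure D1:**
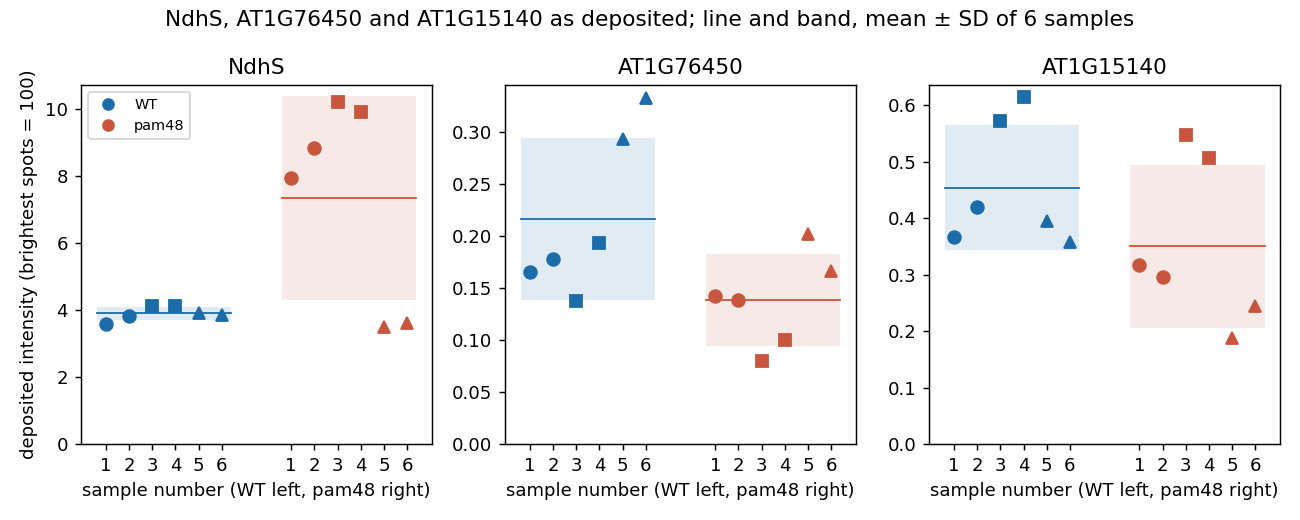
Deposited intensity (linear, brightest spots of a sample at 100) of NdhS, AT1G76450 and AT1G15140 in WT (blue) and pam48 (red) samples 1 to 6, with circles for numbers 1 and 2, squares for 3 and 4, triangles for 5 and 6, and the mean ± SD of 6 samples as line and band. NdhS reaches 7.96 to 10.2 in pam48 samples 1 to 4 against 3.58 to 4.13 in WT, and AT1G76450 and AT1G15140 overlap between the genotypes.

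**Figure D2:**
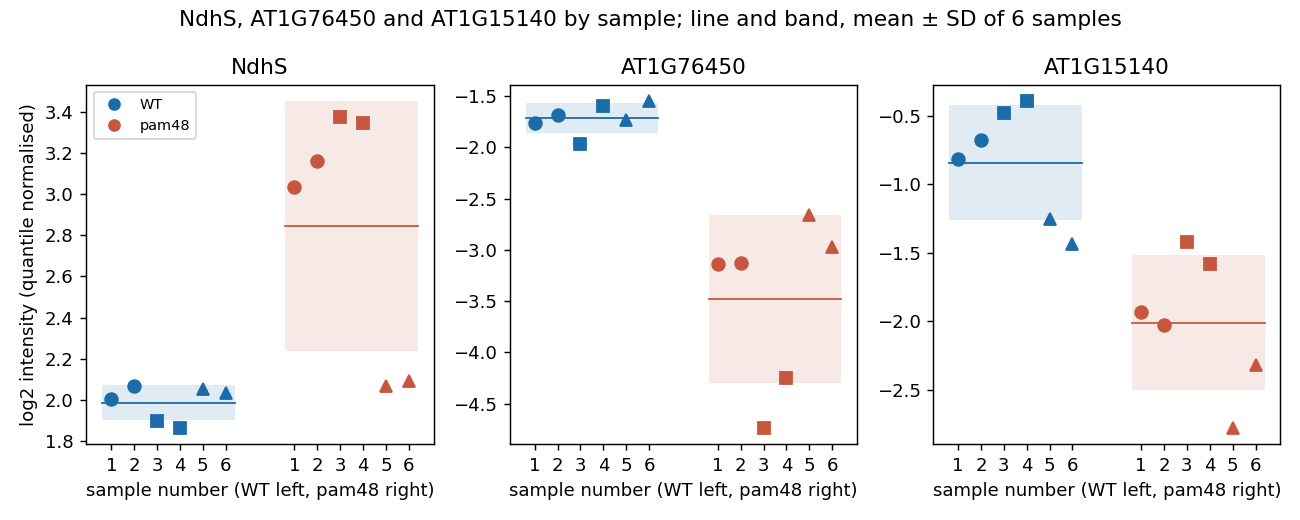
The same 3 genes as log2 intensity after quantile normalisation, with the same symbols, and the mean ± SD of 6 samples as line and band. All pam48 samples of AT1G76450 lie below all WT samples, and pam48 samples 5 and 6 of NdhS lie at 2.07 and 2.09, level with WT.

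The 3 genes differed in how their genotype difference was spread over the couples. NdhS was 2.09-fold higher in pam48 in numbers 1 and 2 and 2.79-fold higher in numbers 3 and 4 (log2 1.06 and 1.48), and it changed by 0.035 (log2) in numbers 5 and 6. The mean over the 3 couples was 0.86 ± 0.743 (log2, SD, n = 3), so that the SD over couples was nearly as large as the mean. AT1G76450 was lower by 2.66-fold, 6.53-fold and 2.25-fold in the couples in order of number (log2 -1.41, -2.71 and -1.17), with a mean of -1.76 ± 0.826 (SD, n = 3). AT1G15140 was lower by 2.35-fold, 2.09-fold and 2.31-fold (log2 -1.23, -1.07 and -1.21), with a mean of -1.17 ± 0.091 (SD, n = 3). As deposited the 3 couples were less alike for AT1G15140, at -0.36, -0.17 and -0.81 (log2). The deposited differences were -0.29, -0.86 and -0.77 for AT1G76450 and 1.18, 1.29 and -0.13 for NdhS.

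AT1G76450 and AT1G15140 were thus lower in all 6 same-numbered comparisons of a pam48 with a WT sample, which held for 12.2% of all probes. A fall of 1 or more on the log2 scale in each of the 3 couples, a limit set after the values were seen, held for 1.1% of all probes. A rise of 1 or more in both lower-numbered couples with a change under 0.5 in numbers 5 and 6, the course of NdhS, held for 4.45% of all probes. These shares describe the array, and since the same contrast chose the genes they say nothing more about them. Readings within a couple lay close together for NdhS, with gaps from 0.018 to 0.12 (log2) within the couples of either genotype. The gaps were wider for AT1G76450, from 0.0086 to 0.49, and for AT1G15140, from 0.089 to 0.46. These gaps may be technical and do not measure the error of a difference between genotypes. For NdhS in numbers 5 and 6 the difference of 0.035 stood beside gaps of 0.018 and 0.025. The means of the WT couples alone ran from 1.88 to 2.04 (log2) for NdhS.

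**Figure D3:**
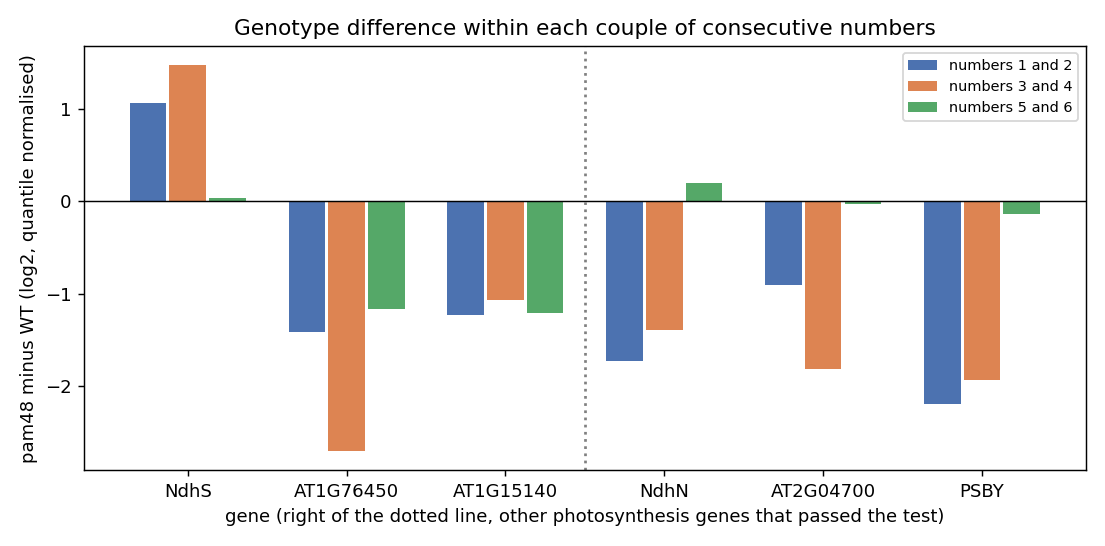
Genotype difference (pam48 minus WT, log2 after quantile normalisation) within numbers 1 and 2, 3 and 4, and 5 and 6, for the 3 genes and, right of the dotted line, for NdhN, AT2G04700 and PSBY. The bar for numbers 5 and 6 lies between -0.14 and 0.20 for NdhS, NdhN, AT2G04700 and PSBY, and below -1 for AT1G76450 and AT1G15140.

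The size of the differences depended on how the samples were scaled, and for NdhS so did the direction. On the values as deposited the median probe was higher in pam48 by 1.06 (log2), against -0.13 after quantile normalisation. NdhS changed there by 0.78, which is -0.28 (log2) relative to the median probe. With each sample centred on its median probe, NdhS changed by -0.32, the opposite direction, and with cyclic loess by 0.94. AT1G76450 was lower in pam48 under each of these scalings, by -1.77 with cyclic loess, by -1.74 with median centring and by -0.64 as deposited, which is -1.70 relative to the median probe there. AT1G15140 was also lower under each, by -1.23, -1.55 and -0.45 (log2) in the same order. The opposite direction of NdhS and the other 2 therefore held after quantile normalisation and with cyclic loess, and not with median centring. As deposited NdhS was higher and the other 2 lower. Relative to the median probe, however, NdhS changed by -0.28 there, the same as with median centring.

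The rank of a probe within its sample, which quantile normalisation keeps and which is therefore no separate evidence, shows where the 3 genes stood. NdhS lay at the 97.1 ± 0.160 percentile of all probes in brightness in WT (SD, n = 6) and at the 98.2 ± 0.712 percentile in pam48 (SD, n = 6), with 98.5 to 98.8 in pam48 samples 1 to 4 and 97.3 in 5 and 6. AT1G76450 lay at the 64.8 ± 3.10 percentile in WT and at the 29.2 ± 11.4 percentile in pam48, down to 13.7 in pam48 3. AT1G15140 lay at the 79.2 ± 5.94 percentile in WT and the 57.9 ± 11.1 percentile in pam48.

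**Figure D4:**
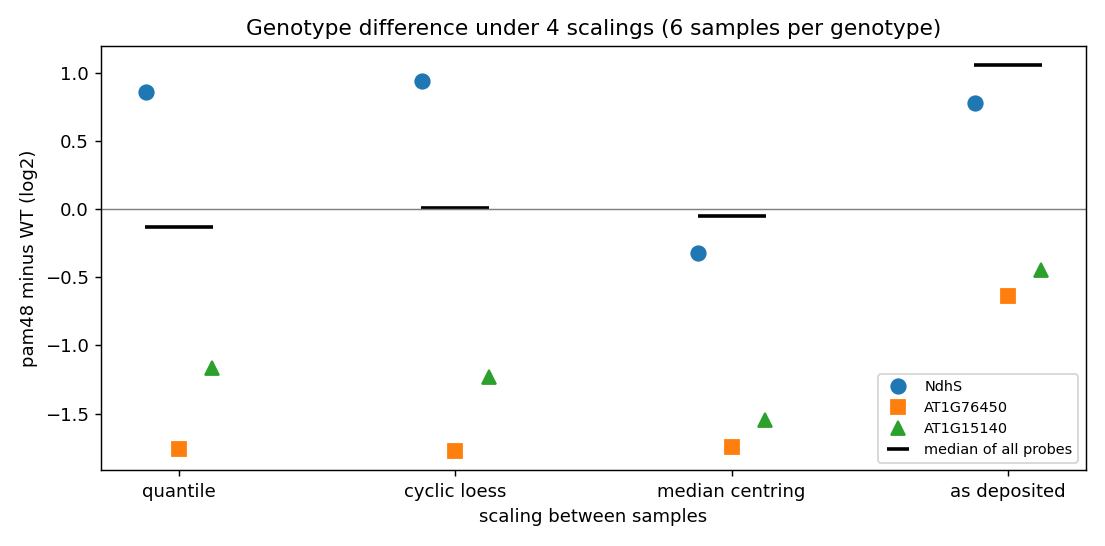
Genotype difference (pam48 minus WT, log2, 6 samples per genotype) of NdhS, AT1G76450 and AT1G15140 under 4 scalings between samples, with a black line for the median of all probes. NdhS lies at 0.86, 0.94, -0.32 and 0.78 from left to right, and the median probe rises to 1.06 on the values as deposited.

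Genes whose profile over the 12 samples was most like that of each gene were found among 602 other single-gene probes above the floor in at least 8 samples. The measure was the root-mean-square difference between log2 values centred on each probe's own mean. Closest to NdhS was CML30, a calmodulin-like protein, at 0.119 (log2), against a median of 0.855 over the 602 probes. CML30 was higher in pam48 by 1.14 and 1.36 (log2) in the lower-numbered couples and changed by -0.0042 in numbers 5 and 6. AT1G62150 and AT2G46630 followed at 0.223 and 0.294. Closest to AT1G76450 were AT2G47360 at 0.373, AT3G09080 at 0.375 and AT4G30740 at 0.396 (median 1.22), and AT3G09080 was lower in pam48 in each couple, by -1.59, -2.07 and -1.77 (log2). Closest to AT1G15140 were AT4G20300 at 0.302, AT2G13690 at 0.338 and AT1G11800 at 0.340 (median 0.945). These measures are descriptions of 12 shared samples, and they include the genotype difference itself. AT1G76450 and AT1G15140, both lower in pam48, lay 0.936 (log2) apart by this measure. AT1G15140 was at rank 124 of the 602 probes counted from AT1G76450, and AT1G76450 at rank 293 counted from AT1G15140.

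The wider machinery around the 3 genes was read from 11 lists with 154 genes, of which 14 besides the 3 had a probe of their own, in 7 of the lists. No other PsbP-family gene, no gene of cyclic electron flow around PGR5 and none of the cytochrome b6f complex or plastid ATP synthase was among them. Limma's test with Benjamini-Hochberg adjustment over all 3439 probes called 3 of the 14, all lower in pam48, and 11 did not pass. Over all probes the test called 16.9%, with 4.91% higher and 12% lower in pam48, and the list was not tested against that background. The floor was each sample's own, at -4.89 to -4.43 (log2) in WT and at -6.13 to -5.38 in pam48 samples 1 to 4. A probe without signal can therefore be called lower in pam48. AT2G46220, at the floor in all 6 WT and all 6 pam48 samples, was called at -0.82 (log2; limma, adjusted p = 0.046). With a common floor for all samples 377 probes were called, against 580. The median change of the 14 was -0.083 (log2) against -0.13 over all probes. Both depend in part on the floor. The 14 include AT5G52970, at the floor in 6 WT and 5 pam48 samples, and the median over all probes was -0.034 with a common floor. These counts treat all 12 columns as separate samples: with each couple averaged, limma called none of the 14 (1 of them at an unadjusted p under 0.05), and with couples as a random block none either (2 of them).

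NdhN, which shares the stromal part of the NDH complex with NdhS, was the other NDH subunit with a probe, and it was lower in pam48. In WT samples 1 to 6 it stood at -1.06, -1.06, -1.44, -1.19, -1.78 and -1.73 (log2, normalised), and in pam48 at -3.14, -2.45, -2.82, -2.59, -1.33 and -1.78. The pam48 samples 1 to 4 lay below all WT samples, as did pam48 6 by a narrow margin, and pam48 5 lay within the WT range. The change was -0.98 ± 0.31 (log2, SE, 6 samples per genotype; limma, adjusted p = 0.046), or 1.97-fold lower. NdhN fell by -1.73 and -1.39 (log2) in numbers 1 and 2 and in 3 and 4 and gave 0.20 in 5 and 6, the couples in which NdhS had changed by 1.06, 1.48 and 0.035. NdhN did not pass limma's test once the replicate number was a block (adjusted p = 0.076) or the couples were a random block (adjusted p = 0.35), nor under cyclic loess (adjusted p = 0.053), nor with a common floor (0.055), a floor at the 1st percentile (0.056) or dim probes left out (0.055), nor when any sample numbered 1 to 4 was left out (adjusted p up to 0.10). As deposited its change was -0.13 (log2; limma, adjusted p = 0.68), on a scale whose median probe rose by 1.06. NdhN did pass limma's test with median centring (-1.24; adjusted p = 0.021) and with array weights (-1.42; adjusted p = 0.0013). It also passed when any sample numbered 5 or 6 was left out (limma, adjusted p from 0.019 to 0.046).

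CRR21 and CRR41 act on the NDH complex without being part of it, the former in editing of an NDH transcript of the plastid and the latter in assembly of its stromal part. Neither passed limma's test: CRR21 gave 0.32 ± 0.21 (log2, SE, 6 samples per genotype; adjusted p = 0.32) and CRR41 gave -0.029 ± 0.18 (adjusted p = 0.93). As deposited both passed as higher in pam48, at 1.27 and 0.82 (limma, adjusted p = 0.010 and 0.018), close to the rise of 1.06 of the median probe on that scale.

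AT2G04700, the catalytic subunit of ferredoxin-thioredoxin reductase, hands electrons from ferredoxin to thioredoxins in the stroma and was lower in pam48. In WT samples 1 to 6 it stood at 0.23, 0.14, 0.69, 0.47, 0.24 and 0.038 (log2, normalised), and in pam48 at -0.78, -0.67, -1.23, -1.25, 0.16 and 0.069. The pam48 samples 1 to 4 lay below all WT samples, and 5 and 6 lay within the WT range. The change was -0.92 ± 0.28 (log2, SE, 6 samples per genotype; limma, adjusted p = 0.046), or 1.89-fold lower, and it was -0.91, -1.82 and -0.023 in the couples in order of number. AT2G04700 did not pass limma's test once the replicate number was a block (adjusted p = 0.069) or the couples were a random block (adjusted p = 0.26), nor under cyclic loess (adjusted p = 0.072) or as deposited (-0.42; adjusted p = 0.14). It also did not pass when WT 5 (adjusted p = 0.052) or any sample numbered 1 to 4 (adjusted p up to 0.10) was left out. AT2G04700 did pass limma's test with median centring (adjusted p = 0.0093), array weights (0.0024), a common floor (0.0455), a floor at the 1st percentile (0.0496) and dim probes left out (0.0492). It also passed without WT 6, pam48 5 or pam48 6 (limma, adjusted p up to 0.0447). NTRC, the NADPH-dependent thioredoxin reductase of the plastid, gave 0.39 ± 0.25 (log2, SE; limma, adjusted p = 0.29). ETFQO, the single other gene whose names in the gene table held the word oxidoreductase, gave -0.47 ± 0.41 (adjusted p = 0.44). It acts in mitochondria.

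**Figure D5:**
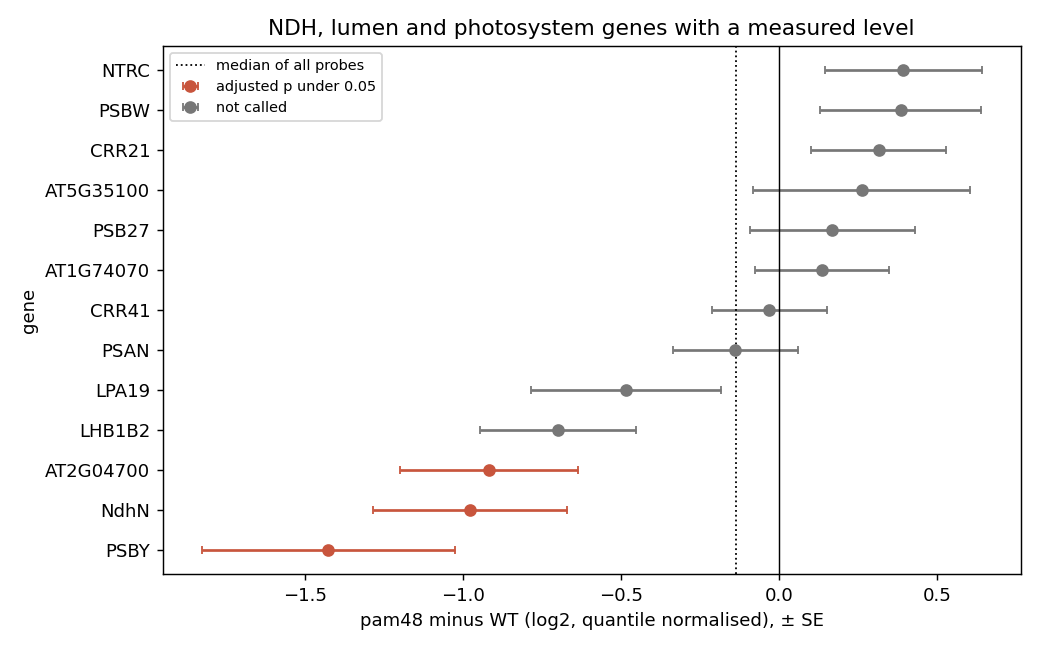
Change in pam48 against WT (log2 after quantile normalisation, ± SE from limma, 6 samples per genotype) of the 13 list genes measured above the floor, with the median of all probes as a dotted line. NdhN, AT2G04700 and PSBY, in red, passed the test and lie between -1.42 and -0.92, and the others span from -0.70 to 0.39.

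None of the 6 genes for other lumen proteins was called. PSB27 and LPA19, related assembly factors of photosystem II, gave 0.17 ± 0.26 and -0.48 ± 0.30 (log2, SE, 6 samples per genotype; limma, adjusted p = 0.68 and 0.28). The lumen immunophilins AT1G74070 and AT5G35100, proteins of the cyclophilin kind, gave 0.14 ± 0.21 and 0.26 ± 0.34 (adjusted p = 0.69 and 0.63), and both passed as higher on the values as deposited (0.98 and 1.35; limma, adjusted p = 0.011 and 0.042), again beside the median probe's 1.06. NTRC passed there too, at 1.25 (adjusted p = 0.0055). AT5G52970 was at the floor in 11 of 12 samples, so no change is given for it. AT1G76450, also a lumen protein and 3.39-fold lower, is left out of these counts because of how it was chosen.

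Photosystem genes gave 1 call. PSBY, a small membrane protein of photosystem II, fell by 1.42 (log2; limma, adjusted p = 0.037), and its change was -2.20, -1.94 and -0.14 in the couples in order of number. PSBY did not pass limma's test once the couples were a random block (adjusted p = 0.24), nor under cyclic loess (adjusted p = 0.051), nor when any sample numbered 1 to 4 was left out (adjusted p up to 0.089). PSBW, PSAN and LHB1B2 did not pass (limma, adjusted p = 0.31, 0.66 and 0.068). With median centring PSAN and LHB1B2 passed as lower, at -1.27 and -2.05 (log2; limma, adjusted p = 0.0044 and 0.0012). LHB1B2 also passed as lower on the deposited values (-0.95; limma, adjusted p = 0.0083) and with array weights (-0.82; adjusted p = 0.0048).

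NdhN, AT2G04700 and PSBY thus fell in both lower-numbered couples, where NdhS rose. All, like NdhS, gave changes from -0.14 to 0.20 in numbers 5 and 6. By the profile measure above they ranked 518, 500 and 578 of 602 from NdhS, and 20, 10 and 17 from AT1G76450. LHB1B2 (-0.65 and -1.25, log2) and LPA19 (-0.66 and -1.07), not called, also fell in both lower-numbered couples. In numbers 5 and 6 they gave -0.20 and 0.29. No other list gene above the floor fell in both lower-numbered couples. A fall of 0.9 or more in both lower-numbered couples with a change under 0.5 in 5 and 6, a limit set after the values were seen, was found for 7.73% of all probes. This share and the counts of calls that follow include probes at the floor. The floor was -6.13 to -5.38 (log2) in pam48 samples 1 to 4. It was -4.82 and -4.97 in pam48 5 and 6, beside -4.85 and -4.89 in WT 5 and 6. A probe without signal can therefore follow the same course. Over all probes the call count also rested on the lower numbers: limma called 580 probes with all samples and 1527 without numbers 5 and 6. The deposited medians also differed by number: WT samples 5 and 6 stood at 0.191 and 0.192, and WT samples 1 to 4 at 0.0913 to 0.0999. The pam48 medians were 0.233 to 0.305 in samples 1 to 4, and 0.245 and 0.239 in samples 5 and 6. The medians of the 2 genotypes thus lay closer together in numbers 5 and 6. What sets samples 5 and 6 apart is not given in the labels and was not tested.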

How the data were processed

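Intensity per probe and sample was deposited as 1 table of 3439 probes and 12 samples on a linear scale up to 100. The labels do not say how the authors labelled, scanned, corrected or normalised these intensities. Each sample held 143 to 385 values of 0 and 3 to 7 at 100. The number of arrays limits the precision.

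Genotypes came from the titles. Values were quantile normalised between samples, raised to each sample's 5th percentile of values deposited above 0 (the floor, -6.13 to -4.43 on the log2 scale) and log2 transformed. A linear model (limma version 3.58.1, R version 4.3.3; lmFit, eBayes, two-sided, no covariate) was fitted over all probes with Benjamini-Hochberg adjustment at 0.05. The fit was tested on simulated data in which the columns were independent. That test does not cover columns that are alike within couples, as these are. Same-numbered WT and pam48 samples deviated together from their genotype means (r across probes 0.188 to 0.418), above a limit of 0.1 set for a pairing. For each WT sample the best pam48 sample of another number gave 0.165 to 0.368, lower than the same number each time. Other numbers thus passed the limit too, so it cannot show that the numbers pair the samples. The meaning of a number is not in the labels. Errors of the 3 genes are SEs from the spread of 6 samples per genotype. These SEs and those of limma treat all columns as separate samples. The correlation within couples, fitted for the random block, was 0.811, so the SEs can be too small. The SD over the 3 couples is given for each of the 3 genes for that reason. Alternatives were cyclic loess, median centring, values as deposited, 2 other floors, a filter on dim probes, blocks, averaged couples, array weights and leaving out samples.

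The platform annotation named probes, through Entrez identifiers to the TAIR10.1 gene table: 692 had 1 gene, of which 690 matched a locus, 870 had several and 1877 had none listed. Related transcripts can hybridise to 1 spot. No build is named for the probes, and coordinates are not used here. Besides the 3 genes, those named were all list genes with a single-gene probe, the 3 profiles most like each gene, and genes with oxidoreductase among their names. The genes and lists were chosen with earlier results of these data known.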

Additional observations from a re-analysis of the deposited data

Results flagged for a closer look

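AT1G74070, a lumen cyclophilin, had 1 pam48 sample far from the other 5: sample 6 stood at -0.89 (log2, normalised) and the others ran from -1.60 to -1.39, a gap of 0.695 of the whole range, above Dixon's critical value for 6 samples. It was the only such case among the 32 groups of 6 samples examined. Chance alone gives about 1 in 20 for 6 independent samples, a rate that need not hold for columns alike within couples. NdhS, AT1G76450 and AT1G15140 gave none. The low NdhS values of pam48 samples 5 and 6 lie together, so neither has a wide gap to its nearest neighbour.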

How the results depend on the processing

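Of the 3 genes, NdhS reversed with median centring (-0.32, log2), and the change moved by more than the SD between samples for AT1G76450 (-0.64) and AT1G15140 (-0.45) as deposited, a scale on which the median probe rose by 1.06. Leaving out 1 sample at a time gave 0.75 to 1.02 for NdhS, -1.93 to -1.51 for AT1G76450 and -1.29 to -1.02 for AT1G15140. The exclusion of whole couples was added after the data were seen: NdhS gave 0.76, 0.55 and 1.27 without numbers 1 and 2, 3 and 4, or 5 and 6. In the same order AT1G76450 gave -1.94, -1.29 and -2.06, a wider range than without 1 sample, and AT1G15140 gave -1.14, -1.22 and -1.15.

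The 580 probes called became 305 with cyclic loess (40.3% higher in pam48 against 29.1%), 1739 as deposited (95.3% higher), 377 with a common floor, 369 without dim probes, 1248 with array weights, 441 with the replicate number as a block, 8 with couples as a random block, 0 with couples averaged (limma; 386 at an unadjusted p under 0.05) and 3 with the couples also as a replicate block. They became 10, 11 and 1527 without numbers 1 and 2, 3 and 4, or 5 and 6, and 158 to 678 without 1 sample, the lowest without WT 3 or pam48 3.

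The 3 list genes called became 0 with cyclic loess (limma; 5 at an unadjusted p under 0.05), 5 with median centring, 8 as deposited (6 higher), 5 with array weights, and 1 with the replicate block, which was PSBY. They became 0 with couples as a random block, with couples averaged and with the block on averages, 0, 0 and 6 without the 3 couples in order, and 0 to 5 without 1 sample. As deposited the change of CRR41 reversed and passed (0.82), and the fitted value of AT5G52970 reversed (1.43), which is no measured change, since that gene was at the floor in 11 of 12 samples after normalisation. The cause of these differences was not tested.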
